A study of Homo sapiens with 5 samples.

Results

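Genes of the sine oculis homeobox family (SIX2, SIX4 and SIX5), their EYA coactivators and the DACH corepressors were followed in Rh41 cells in which the histone gene H3F3A had been knocked down. Rh41 is an established line of fusion-positive alveolar rhabdomyosarcoma (ARMS, FP-RMS in the labels), a tumour whose cells resemble muscle precursors. Cells were transfected with an siRNA against H3F3A (n = 3 libraries, replicates 1, 2 and 3) or with a scrambled siRNA (n = 2 libraries, replicates 1 and 3). Both groups received Lipofectamine RNAiMAX, and RNA was taken at 48 hours. The labels do not say whether replicates were separate cultures, so the spread behind each p-value is that of these libraries and may be technical. The 9 genes, chosen by exact gene name among 43714 gene rows, were SIX2, SIX4 and SIX5, EYA1, EYA2, EYA3 and EYA4, and DACH1 and DACH2. They are not the whole of these families, and other members were not analysed here. Of the 9, 7 passed the filter on low counts and were tested among 15859 genes. DACH1 and DACH2 did not pass.

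Sine oculis proteins are homeodomain transcription factors. EYA proteins do not bind DNA themselves but join sine oculis proteins as coactivators, and they also carry a phosphatase domain. DACH proteins are relatives of the SKI family that act mostly as corepressors beside both. In the embryo this network works with PAX3 upstream of the myogenic factors, and sine oculis proteins bind MEF3 sites in muscle promoters such as that of MYOG.

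The upstream sequences of 4 of these genes are shown. EYA4 and SIX2 were the members called in a test below. Of the paralogues they are set against, EYA3 and SIX4 are those whose window was kept. Each is the run of 250 bases before the annotated start, on the gene's own strand, from RefSeq (GRCh38.p14). Windows were matched by symbol and kept for 6 of the 9 genes. Those of SIX5, EYA1 and EYA2 were not examined. Capitals mark the E-box, CANNTG, the binding motif of myogenic bHLH factors, searched on both strands. The MEF3 core, TCAGGTT, was searched likewise and overlaps no E-box here.
EYA4, chr6:133241107-133241356, plus strand: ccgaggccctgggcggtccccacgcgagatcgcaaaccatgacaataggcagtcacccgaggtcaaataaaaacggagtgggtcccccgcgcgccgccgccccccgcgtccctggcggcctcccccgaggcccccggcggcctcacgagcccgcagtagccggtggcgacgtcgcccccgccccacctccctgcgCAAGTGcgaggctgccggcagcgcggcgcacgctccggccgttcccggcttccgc
EYA3, chr1:28088611-28088860, minus strand: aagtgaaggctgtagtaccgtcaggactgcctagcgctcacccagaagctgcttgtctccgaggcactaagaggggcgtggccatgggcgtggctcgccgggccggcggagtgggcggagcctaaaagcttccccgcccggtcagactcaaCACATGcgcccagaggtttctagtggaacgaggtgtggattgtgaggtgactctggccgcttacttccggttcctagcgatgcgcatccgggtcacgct
SIX2, chr2:45009453-45009702, minus strand: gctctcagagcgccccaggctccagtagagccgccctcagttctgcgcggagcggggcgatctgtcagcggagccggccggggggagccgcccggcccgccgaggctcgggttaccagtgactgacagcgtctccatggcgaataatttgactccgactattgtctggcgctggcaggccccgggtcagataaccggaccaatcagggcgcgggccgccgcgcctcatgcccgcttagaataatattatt
SIX4, chr14:60724352-60724601, minus strand: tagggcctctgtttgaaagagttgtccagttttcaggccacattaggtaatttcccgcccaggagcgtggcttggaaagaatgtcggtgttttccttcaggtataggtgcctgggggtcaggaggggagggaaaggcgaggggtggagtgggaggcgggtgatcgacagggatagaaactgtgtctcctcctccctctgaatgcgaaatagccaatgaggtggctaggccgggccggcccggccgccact

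EYA4 and EYA3 each held 1 E-box in this window, while SIX2 and SIX4 held none, and these letters stand in 61.8% of 35116 RefSeq windows of this length. None of the 4 windows held the MEF3 core, which stands in 2.79% of all windows. The GC content of the window was 75.2% for EYA4, 62.4% for EYA3, 65.6% for SIX2 and 58% for SIX4, against a median of 58% over all windows. The transcripts differ from these windows in base composition. The longest annotated transcript had 40.8% GC for EYA4, 46.3% for EYA3, 61.9% for SIX2 and 41.9% for SIX4. EYA4 thus had the most GC-rich window and the least GC-rich transcript of these 4 genes. The GC values used for the tests below are those of the transcripts.

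The libraries held 28493573 to 30705963 counts assigned to genes. H3F3A, the targeted gene, stood at 9.38, 10.5 and 8.54 CPM (read counts scaled to library size by edgeR's TMM method) after H3F3A siRNA, against 294 and 269 CPM in scrambled libraries, and H3F3B, which encodes the same protein, had a log2 fold change of -0.0035 (edgeR adjusted p = 0.988), and -0.01 with the GC trend described below removed. All 7 muscle markers examined were above 1 CPM, at a summed 3460 to 3590 CPM after H3F3A siRNA and 3820 to 4590 CPM in scrambled libraries. Of 7 fibroblast markers, 3 were above 1 CPM, COL3A1 at 1200, PDGFRB at 38.6 and COL1A1 at 34.5 CPM, while DCN, LUM, FAP and THY1 were below. The fibroblast list summed to 1230 to 1290 CPM after H3F3A siRNA and 1210 to 1330 CPM in scrambled libraries. Of 6 epithelial markers, KRT18, CLDN4 and KRT8 were above 1 CPM and EPCAM, CDH1 and KRT5 below, with a sum of 8.62 to 9.38 CPM after H3F3A siRNA and 9.13 to 11.1 CPM in scrambled libraries. Of 5 endothelial markers VWF alone was above 1 CPM (sums 2.23 to 2.72 and 2.64 to 3.27 CPM), and of 6 immune markers CD68 alone (sums 4.20 to 4.86 and 4.08 to 4.66 CPM). The part of other cell types in the results was not tested. The libraries differed in a trend over transcript GC. For each 10 points of GC, log2 CPM relative to the mean over the 5 libraries changed by -0.06, -0.0391 and -0.0409 in H3F3A siRNA replicates 1, 2 and 3, and by 0.146 and -0.0059 in scrambled replicates 1 and 3, so that scrambled replicate 1 stood apart. The fold changes below are therefore given with this trend kept and with each library's smooth trend removed.

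Of the 7 tested genes, EYA4 alone was called with the trend kept, and its level was the higher one in knockdown cells (quasi-likelihood test of edgeR, Benjamini-Hochberg adjusted p under 0.05). SIX2 alone was called, also higher, with the trend removed. No member was called lower in either fit. Over all 15859 genes, 3.20% were called with the trend kept, 0.504% higher and 2.69% lower. These shares were 2.08% with the trend removed, 0.467% higher and 1.61% lower. The median log2 fold change of the 7 genes was 0.06 with the trend kept and 0.05 with it removed, against 0.01 and -0.01 over all genes tested. With the trend kept 5 of the 7 lay above 0, as did 8146 of all 15859 genes, and with it removed 6 of 7 did, as did 7395 of all 15859.

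**Figure D1:**
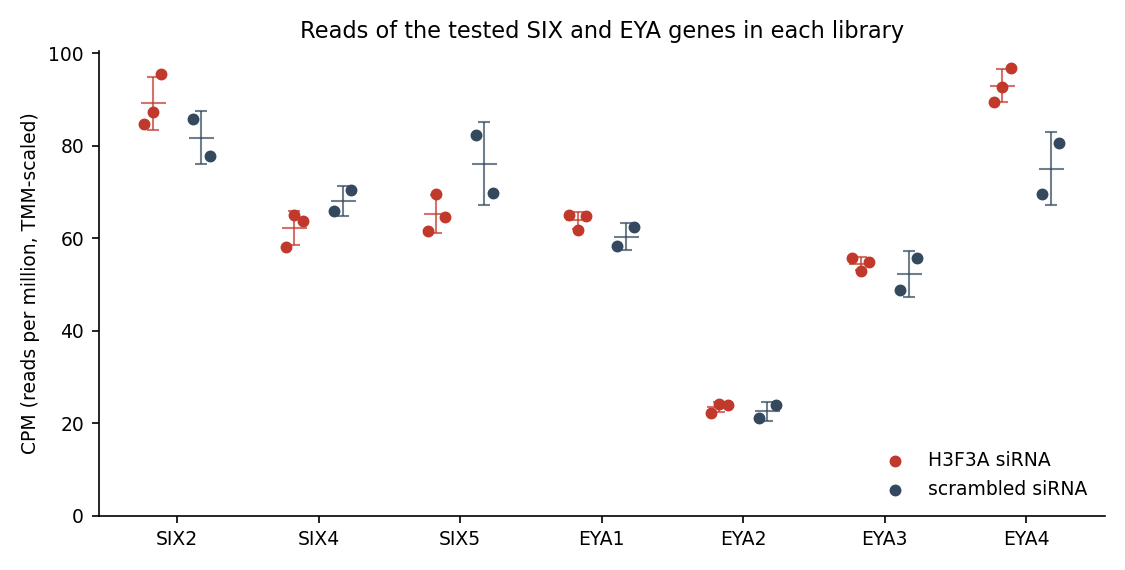
TMM-scaled CPM (y axis, from 0) of the 7 tested genes (x axis), with 1 point per library and crossed bars for the mean and SD. H3F3A siRNA libraries (n = 3, red) are left of scrambled libraries (n = 2, dark blue). With the GC trend kept, only for EYA4, SIX4 and SIX5 do the groups not overlap, as for 33.1% of all tested genes. SIX5 is separated only by 69.6 against 69.7 CPM. With the trend removed the groups do not overlap for SIX2, SIX4 and EYA4, as for 29.8% of all tested genes.

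Per kilobase of the longest annotated transcript, SIX2 had the highest level of the 9 genes in both groups. It stood at 40.4 ± 2.57 CPM per kb after H3F3A siRNA and 37.1 ± 2.60 CPM per kb in scrambled libraries (SD, n = 3 and n = 2, here and for the levels that follow). SIX5 came next, at 19.7 ± 1.24 and 22.9 ± 2.69 CPM per kb. EYA4 was at 16.3 ± 0.632 after H3F3A siRNA and 13.2 ± 1.38 in scrambled libraries, and EYA1 at 14.8 ± 0.437 and 14.0 ± 0.678 CPM per kb. EYA4 thus lay above EYA1 after H3F3A siRNA by more than their SDs, and within their spread in scrambled libraries. SIX4 followed at 9.90 ± 0.594 and 10.8 ± 0.524 CPM per kb. EYA3, at 8.96 ± 0.247 and 8.59 ± 0.811, and EYA2, at 8.68 ± 0.389 and 8.36 ± 0.765, did not differ beyond their spread in either group. The order depends on the length chosen. Over the union of annotated exons EYA1 came to 6.78 and 6.41 CPM per kb, below EYA3 at 8.41 and 8.06, because the exon union of EYA1 is 9418 bases long and its longest transcript 4326.

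EYA4, one of the coactivators, had 89.5, 92.7 and 96.7 CPM in H3F3A siRNA replicates 1, 2 and 3, against 69.5 and 80.6 CPM in scrambled replicates 1 and 3. All 3 H3F3A siRNA libraries lay above both scrambled ones, a lack of overlap that 33.1% of all tested genes showed, 16.0% toward higher and 17.1% toward lower values. EYA4 averaged 92.9 ± 3.60 CPM after H3F3A siRNA and 75.0 ± 7.89 CPM in scrambled libraries, a 1.24-fold rise (log2 fold change 0.31, SE 0.0813, edgeR adjusted p = 0.0391). With the GC trend removed the levels were 86.5, 90.5 and 94.5 CPM after H3F3A siRNA, against 75.8 and 80.1 CPM in scrambled libraries. The groups still did not overlap, but the log2 fold change was 0.22 (SE 0.0586, 95% interval 0.09 to 0.34) and the adjusted p = 0.0702. The call with the trend kept was lost when any library other than scrambled replicate 3 was left out. Without scrambled replicate 1 the log2 fold change was 0.20 (edgeR adjusted p = 0.32), and without H3F3A siRNA replicate 1, 2 or 3 it was 0.34, 0.31 or 0.28 (edgeR adjusted p = 0.172, 0.139 and 0.162).

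The other coactivators had log2 fold changes near 0. EYA1, whose mutation causes branchio-oto-renal syndrome, had 65.1, 61.7 and 64.8 CPM after H3F3A siRNA, against 58.3 and 62.4 CPM in scrambled libraries. The groups overlapped, and the log2 fold change was 0.08 with the trend kept (95% interval -0.08 to 0.24) and 0.0034 with it removed (-0.12 to 0.12). EYA3, a broadly expressed member, had 55.8, 52.9 and 54.8 CPM after H3F3A siRNA, against 48.8 and 55.8 CPM in scrambled libraries. Its log2 fold change was 0.06 (95% interval -0.11 to 0.23), and 0.01 with the trend removed. EYA2 had the fewest reads of the 4, with 22.2, 24.2 and 23.9 CPM after H3F3A siRNA, against 21.1 and 24.0 CPM in scrambled libraries. Its log2 fold change was 0.05 (95% interval -0.14 to 0.24), and 0.13 with the trend removed (-0.06 to 0.31). For EYA1, EYA2 and EYA3 the values of 1 group thus ran into those of the other. Their intervals with the trend kept reach beyond neither -0.14 nor 0.24 on the log2 scale. EYA2 and EYA3 changed sign without scrambled replicate 1, to -0.04 each.

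SIX2, best known as the factor that maintains nephron progenitors in the kidney, had 84.6, 87.3 and 95.5 CPM in H3F3A siRNA replicates 1, 2 and 3, against 85.8 and 77.7 CPM in scrambled replicates 1 and 3. Scrambled replicate 1 lay inside the range of the H3F3A siRNA libraries. The log2 fold change was 0.12 (SE 0.0803, edgeR adjusted p = 0.463). The transcript of SIX2 is GC-rich, and the GC trend at its 61.9% GC was -0.0799, -0.0561 and -0.0579 log2 after H3F3A siRNA, against 0.195 and -0.00588 log2 in scrambled replicates 1 and 3. With the trend removed SIX2 stood at 89.4, 90.8 and 99.4 CPM after H3F3A siRNA, against 75.0 and 78.0 CPM in scrambled libraries. The groups then did not overlap, as for 29.8% of all tested genes (12.3% higher and 17.4% lower), and SIX2 rose 1.22-fold (log2 fold change 0.28, SE 0.0603, edgeR adjusted p = 0.0185). With the trend removed and scrambled replicate 1 also left out, the log2 fold change was 0.25 and the call was lost (edgeR adjusted p = 0.225). It was also lost without H3F3A siRNA replicate 2 (0.30, adjusted p = 0.055) or replicate 3 (0.24, adjusted p = 0.155), while without H3F3A siRNA replicate 1 the adjusted p was 0.0033.

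SIX4, which in the mouse is one of the factors that act on Pax3 and the myogenic genes, had 58.0, 65.0 and 63.7 CPM after H3F3A siRNA, against 65.8 and 70.4 CPM in scrambled libraries. All 3 H3F3A siRNA libraries lay below both scrambled ones, with H3F3A siRNA replicate 2 close to scrambled replicate 1. The log2 fold change was -0.13 (SE 0.0793, edgeR adjusted p = 0.43). After removal of the trend SIX4 had 56.2, 63.6 and 62.4 CPM after H3F3A siRNA, against 71.2 and 70.0 CPM in scrambled libraries. The log2 fold change was then -0.22 (SE 0.0626), with an adjusted p = 0.0882, so SIX4 was called in neither fit.

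SIX5, whose gene neighbours DMPK, the gene of myotonic dystrophy, had 61.5, 69.6 and 64.6 CPM after H3F3A siRNA, against 82.4 and 69.7 CPM in scrambled libraries. Scrambled replicate 1 was the high one, while scrambled replicate 3 was level with H3F3A siRNA replicate 2. The log2 fold change was -0.22 (SE 0.0845, edgeR adjusted p = 0.168). SIX5 has the highest transcript GC of the 9 genes, 68%, where the trend was -0.141, -0.0705 and -0.106 log2 after H3F3A siRNA, against 0.305 log2 in scrambled replicate 1. After removal of the trend SIX5 stood at 67.8, 73.1 and 69.5 CPM after H3F3A siRNA, against 66.7 and 69.0 CPM in scrambled libraries. The groups then overlapped, and the log2 fold change was 0.05 (95% interval -0.07 to 0.17). Its direction thus turned with the GC trend, and without scrambled replicate 3 and with the trend kept SIX5 was called lower (log2 fold change -0.34, edgeR adjusted p = 0.0044). Without scrambled replicate 1 and with the trend kept it was at -0.10 (edgeR adjusted p = 0.766).

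**Figure D2:**
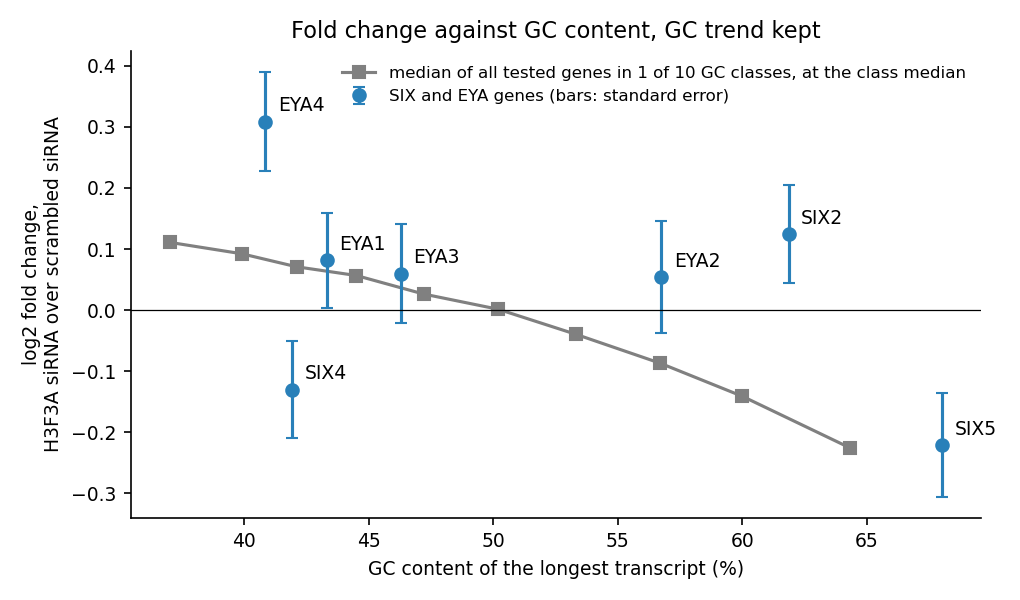
Log2 fold change, H3F3A siRNA over scrambled siRNA, with the GC trend kept (y axis) against the GC content of the longest transcript in percent (x axis), for the 7 tested genes (blue, bars are standard errors) and as medians of all tested genes in 10 GC classes (grey). The medians run between 0.111 in the class of lowest GC and -0.225 in that of highest GC, SIX5 lies near them, EYA4, EYA2 and SIX2 lie above, and SIX4 lies below.

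Set against genes of like GC content, the members spread to both sides. The median log2 fold change of all tested genes was 0.09 in the GC class of EYA4, 0.07 in that of SIX4 and -0.225 in the class that holds both SIX2 and SIX5. SIX2, at 61.9% GC, lies at the lower edge of that class (61.8% to 85.1% GC), and the class below it had a median of -0.141. EYA4 at 0.31 and SIX2 at 0.12 lay above these medians, SIX4 at -0.13 lay below, and SIX5 at -0.22 lay at its class median. EYA1 at 0.08 and EYA3 at 0.06 lay near the medians of 0.06 and 0.03 of their classes, and EYA2 at 0.05 lay above -0.09. In the class of SIX2 and SIX5, 14.3% of genes were called lower and 0.0695% higher with the trend kept.

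**Figure D3:**
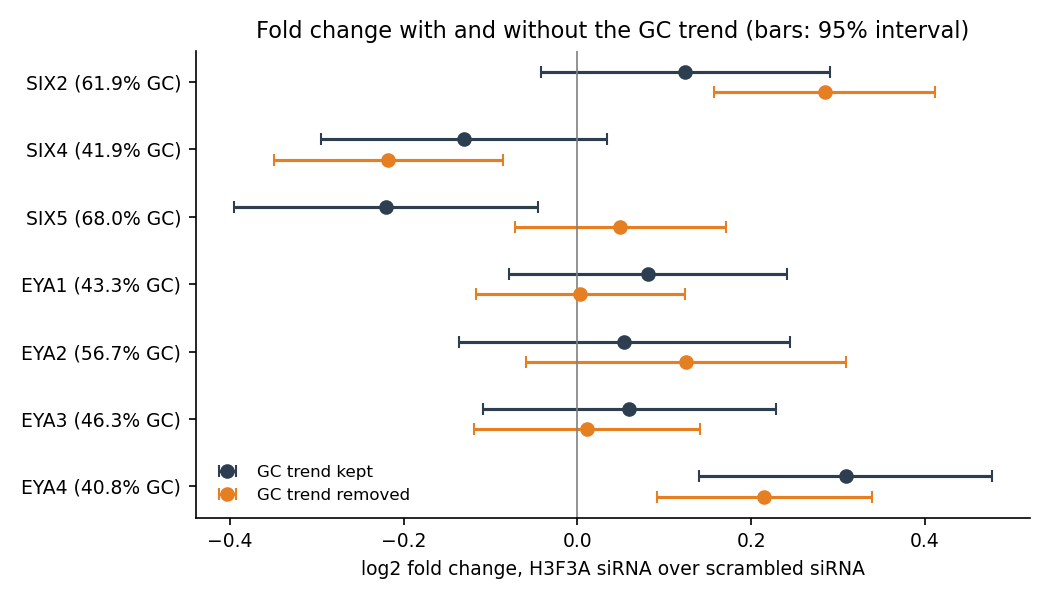
Log2 fold change, H3F3A siRNA over scrambled siRNA (x axis), of the 7 tested genes (y axis, with transcript GC), with the GC trend kept (dark) and removed (orange), with bars for the 95% interval. Removal of the trend moved SIX5 by 0.27 and SIX2 by 0.16 upward, EYA4 by -0.09, SIX4 by -0.09 and EYA1 by -0.08.

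Ratios of paralogues within a library set each gene against a relative in the same RNA. In all, 9 pairs were compared, 3 of sine oculis and 6 of EYA genes, with an exact two-sided permutation test over the 5 libraries. That test has 10 splits and cannot give a p below 0.1, so no pair could pass. After adjustment over the 9 pairs the smallest p was 0.18 with the trend kept and 0.3 with it removed. A ratio of reads between genes also depends on their lengths, so only its difference between groups is compared here.

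EYA4 was higher relative to each of the other EYA genes after H3F3A siRNA. The log2 ratio of EYA4 to EYA3 was 0.681, 0.81 and 0.819 after H3F3A siRNA, against 0.51 and 0.532 in scrambled libraries, a difference of 0.25 (exact p = 0.1). The groups did not overlap, and scrambled replicates 1 and 3 were close to each other. The log2 ratio of EYA4 to EYA1 was 0.459, 0.587 and 0.577 after H3F3A siRNA, against 0.253 and 0.369 in scrambled libraries, a difference of 0.23 (exact p = 0.1). EYA1 is the paralogue whose GC content is closest to that of EYA4. With the trend removed these differences were 0.20 against EYA3 (exact p = 0.2) and 0.21 against EYA1 (exact p = 0.1), and the groups still did not overlap. Against EYA2, whose transcript has 56.7% GC, the difference was 0.26 with the trend kept (exact p = 0.1). With the trend removed it was 0.08 (exact p = 0.5), and the groups overlapped. Among EYA1, EYA2 and EYA3 the differences with the trend kept lay between -0.03 and 0.01, and the groups overlapped in all 3 pairs. With the trend removed the difference was 0.13 for EYA2 to EYA1, -0.12 for EYA3 to EYA2 and 0.0091 for EYA3 to EYA1, each of the opposite sign, and the groups overlapped in these pairs too.

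SIX2 was higher relative to both SIX4 and SIX5 after H3F3A siRNA. The log2 ratio of SIX5 to SIX2, the pair of GC-rich genes, was -0.46, -0.326 and -0.563 after H3F3A siRNA, against -0.0594 and -0.157 in scrambled libraries. This difference of -0.34 (exact p = 0.1) was -0.23 with the trend removed (exact p = 0.2). The log2 ratio of SIX4 to SIX2 was -0.545, -0.426 and -0.584 after H3F3A siRNA, against -0.384 and -0.142 in scrambled libraries, a difference of -0.26 (exact p = 0.1). That difference was -0.13 without scrambled replicate 3 and -0.38 without scrambled replicate 1. After removal of the trend the log2 ratio of SIX4 to SIX2 was -0.67, -0.513 and -0.671 after H3F3A siRNA, against -0.0746 and -0.156 in scrambled libraries, a difference of -0.50. In neither pair did the groups overlap in either form. The ratio of SIX5 to SIX4, genes 26.1 points apart in GC, differed by -0.09 with overlapping groups when the trend was kept, and by 0.27 without overlap when it was removed.

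**Figure D4:**
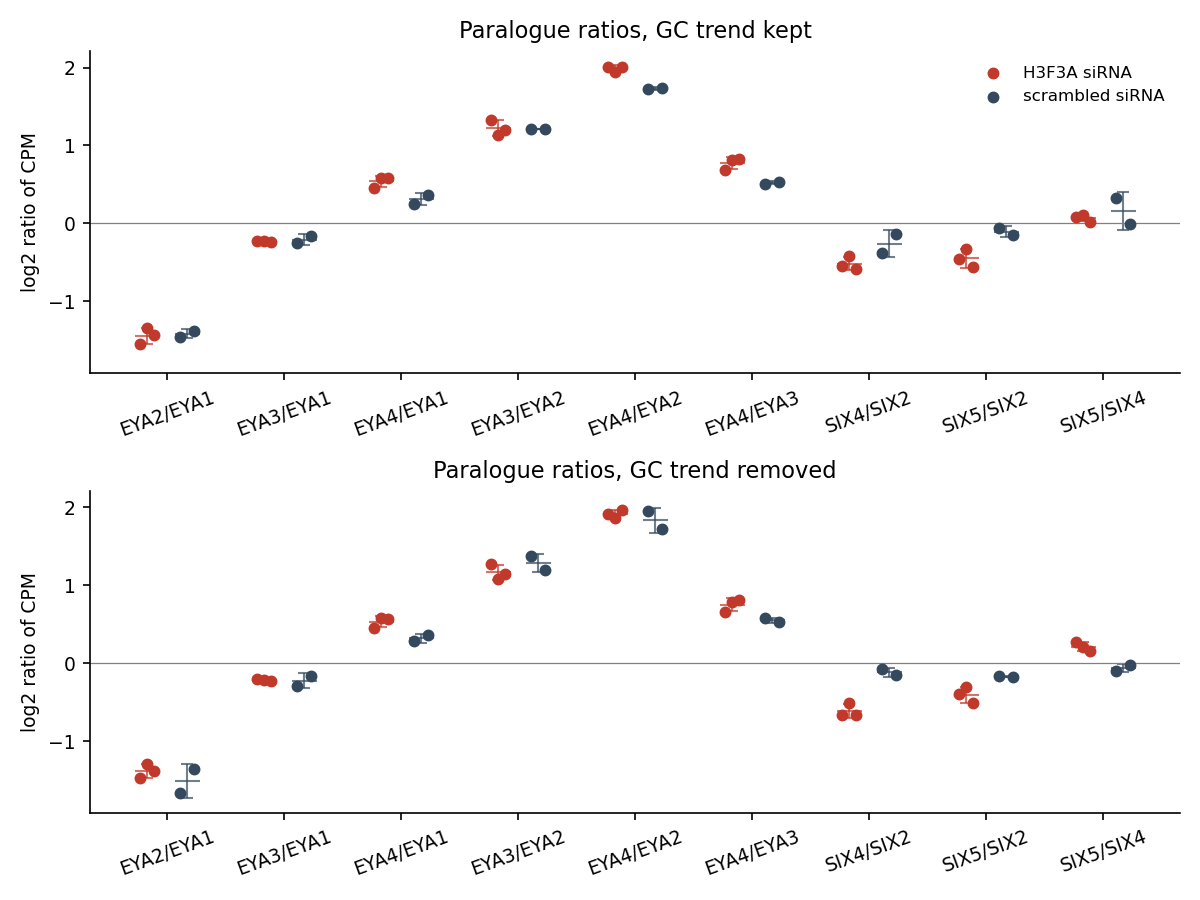
Log2 ratio of CPM of 2 paralogues within a library (y axis) for 9 pairs (x axis), with the GC trend kept (top) and removed (bottom), 1 point per library and crossed bars for the mean and SD. H3F3A siRNA libraries (n = 3, red) are left of scrambled libraries (n = 2, dark blue), and the 3 ratios with EYA4 on top are higher, and the 2 ratios over SIX2 lower, after H3F3A siRNA in the upper panel.

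As shares of the summed CPM per kilobase of the 4 EYA genes, EYA4 took 32.6%, 33.8% and 34.1% after H3F3A siRNA, against 29.4% and 30.3% in scrambled libraries. The sum itself was 48.2, 48.2 and 49.8 CPM per kb after H3F3A siRNA, against 41.5 and 46.6 CPM per kb. Of the sum of SIX2, SIX4 and SIX5, SIX2 took 58%, 55.8% and 59.4% after H3F3A siRNA, against 52.4% and 52.2%. SIX5 took 28%, 29.6% and 26.7%, against 33.4% and 31.1%. These shares, taken with the GC trend kept, thus differed in the same sense as the ratios with the trend kept, on the same reads. SIX5 itself had a log2 fold change of -0.22 with the trend kept and 0.05 with it removed.

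The DACH corepressors were at or near 0. DACH1 had 0, 6 and 6 counts after H3F3A siRNA, against 7 and 7 counts in scrambled libraries, or at most 0.207 and 0.240 CPM. DACH2 had no count in any library, which allows up to 0.0971 to 0.103 CPM (3 counts, for counting error only). No fold change is given for either gene. DACH1 and DACH2 differ too little from 0 for a paralogue comparison at this depth.

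The counts of the tested members ran between 616 for EYA2 and 2988 for EYA4, and the counting error was at most 4.03%. The SD between scrambled libraries was 4.84% to 11.8% of the mean, and between H3F3A siRNA libraries 2.76% to 6.36%. Genes on the opposite strand overlap exons of SIX5, EYA1 and EYA4 in the GENCODE annotation. In the stranded columns of the files, which together keep reads that overlap opposite-strand genes, EYA1 had 118% to 122% of its unstranded count, EYA4 104% to 105% and SIX5 103% to 106%. The first strand held 49.9% to 50.1% of stranded counts in each library. The columns thus do not tell the strands apart, and the added reads can belong to either gene. With the sums of both columns EYA4 was called as before (log2 fold change 0.31, edgeR adjusted p = 0.0359). TARID, the antisense RNA that overlaps 1% of EYA4 exons, averaged 1.70 CPM. For SIX5 the overlap is larger, as an opposite-strand gene not found by name among the counted genes covers 56.8% of its exons. Reads of that gene could enter the SIX5 count, and their part was not tested.

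Of 18 binding partners and cofactors, 2 were called lower and none higher with the trend kept, and none was called with it removed. Over all tested genes 2.69% were called lower with the trend kept and 1.61% with it removed. This list and those below were chosen with earlier results of these data known. The median log2 fold change was -0.09 and -0.05. H2AX, the histone whose C-terminal tyrosine is a substrate of EYA phosphatases, stood at 571 ± 10.8 CPM after H3F3A siRNA and 773 ± 150 CPM in scrambled libraries (log2 fold change -0.44, edgeR adjusted p = 0.0109), and at -0.18 with the trend removed (adjusted p = 0.127). SKI, a relative of the DACH proteins, stood at 185 ± 19.9 and 229 ± 10.7 CPM (-0.31, adjusted p = 0.0458), and at -0.18 with the trend removed (adjusted p = 0.242). JUN, the most abundant partner, had a log2 fold change of -0.20 (edgeR adjusted p = 0.185), and -0.12 with the trend removed.

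Of 13 genes reported in human or mouse as targets of sine oculis, EYA or DACH proteins, 11 were tested, and 2 were called lower and none higher in both fits. The shares called lower over all tested genes were 2.69% with the trend kept and 1.61% with it removed. The list was chosen with earlier results of these data known. The median log2 fold change was -0.27 with the trend kept and -0.18 with it removed, and 10 of 11 lay below 0 in each. Over all 15859 genes the median was 0.01 with the trend kept and -0.01 with it removed. On the opposite side, above 0, lay 8146 of them with the trend kept and 7395 with it removed. CCND1, the G1 cyclin, fell to 75.6 ± 4.06 CPM after H3F3A siRNA, against 109 ± 2.17 CPM in scrambled libraries (log2 fold change -0.52, edgeR adjusted p = 0.000839, and -0.53 with the trend removed). SALL1, a zinc finger factor of kidney progenitors, fell to 9.23 ± 0.317 CPM, against 13.1 ± 0.310 CPM (-0.50, adjusted p = 0.00967, and -0.52 with the trend removed). MYOD1, the most abundant of the list, had 1090 ± 34.4 and 1340 ± 208 CPM (-0.29, adjusted p = 0.0654), and -0.06 with the trend removed.

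Of 22 regulators of muscle progenitors 19 were tested, and 1 was called lower with the trend kept and 1 higher with it removed, with medians of -0.10 and 0.04. Among all tested genes 2.69% were called lower with the trend kept and 0.467% higher with it removed. TCF3, an E-protein partner of the myogenic factors, stood at 325 ± 10.6 CPM after H3F3A siRNA and 402 ± 50.2 CPM in scrambled libraries (log2 fold change -0.31, edgeR adjusted p = 0.0391), and at -0.16 with the trend removed (adjusted p = 0.171). MEOX1, a homeobox gene of the somite, was the one called with the trend removed and was named after its values were seen. It stood at 11.7 ± 0.283 and 9.0 ± 0.0780 CPM (0.38, adjusted p = 0.0541, and 0.40 with the trend removed, adjusted p = 0.0376). PAX3, whose reads here can include those of the fusion transcript, had a log2 fold change of -0.10 (edgeR adjusted p = 0.642), and -0.11 with the trend removed. TCF12, another E-protein, had 0.14 (adjusted p = 0.381), and 0.04 with the trend removed.

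Fast-fibre genes depend on sine oculis and EYA proteins in the mouse. Of 15 such genes 10 were tested, and 1 was called higher with the trend kept and 2 with it removed, with medians of 0.03 and 0.04. Among all tested genes 0.504% were called higher with the trend kept and 0.467% with it removed. PYGM, the glycogen phosphorylase of muscle, rose to 15.9 ± 0.585 CPM after H3F3A siRNA, against 10.2 ± 1.47 CPM in scrambled libraries (log2 fold change 0.64, edgeR adjusted p = 0.00257, and 0.73 with the trend removed). ATP2A1, the calcium pump of fast fibres, was the other with the trend removed and was named after its values were seen (0.23, adjusted p = 0.129, and 0.33 with the trend removed, adjusted p = 0.00325). ENO3 and PFKM, the most abundant of the list, had 0.0041 and -0.02, and 0.08 and -0.02 with the trend removed. Of 10 slow-fibre genes 8 were tested and none was called in either fit, with medians of -0.0072 and -0.01, and the abundant TNNT1 and ATP2A2 had -0.01 and 0.00063, and 0.11 and -0.04 with the trend removed.

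The genes whose pattern over the 5 libraries was nearest to that of EYA4 were DNM3OS, CLOCK and FAM171B, among 9716 other genes that averaged 8 CPM or more. The likeness was the root mean square difference of centred log2 CPM with the GC trend kept. It was 0.0113, 0.0272 and 0.0274 for these genes. Like EYA4 they have transcripts of low GC, at 34.6%, 37.2% and 38.3%, and the part of the GC trend in this likeness was not tested. The genes nearest to SIX2 were LINC00888, ORMDL3 and VLDLR, at 0.0161, 0.0254 and 0.0266, with 41.5%, 54% and 42.7% GC. With the trend kept SIX2 itself was not called (edgeR adjusted p = 0.463).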

How the data were processed

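Poly-A RNA was sequenced from 5 libraries. Per the labels' protocols, TRIzol was used for extraction, mRNA was captured on poly-T beads, and a NEBNext Ultra kit gave the libraries. Each deposited file gives raw counts of reads by gene, 1 column unstranded and 2 by strand, as STAR writes them. The submitters' processing notes list STAR 2.5, HTSeq 0.6.1, DESeq2 and hg19 among the tools and builds, without a role for each. Unstranded counts were used, and the 4 summary lines that name no gene were left out. They held 4.84% to 5.48% of reads as unmapped, 6.28% to 6.42% as multimapping, 9.17% to 10.2% outside genes and 4.45% to 4.56% as ambiguous. Coordinates of genes are not given because the files' build was not settled.

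The test was that of edgeR 4.0.16, run in R 4.3.3 (filterByExpr, TMM, robust quasi-likelihood fit, group alone as the term), and p-values were adjusted over all 15859 tested genes. Standard errors and 95% intervals came from the fold change and its F statistic. GC content and length were those of the longest GENCODE v29 transcript, and 90.7% of tested genes had a value. The trend was a lowess curve (span 0.3) of log2 CPM, relative to the mean of libraries, over GC, entered as an offset, and genes without a GC value got none. Paralogue ratios used log2 CPM with a prior count of 0.5. The scripts were tested on simulated data.

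The members and the gene lists were chosen with earlier results of these data known. Named were the members, H3F3A and H3F3B, from each list the called genes (up to 4 a direction) and the 2 most abundant, the 3 genes most like each called member, and overlapping genes. PAX3, neither called nor among the 2 most abundant of its list, was also named. Some genes of these lists are not reported here. Alternatives were other scalings, filters and tools (DESeq2 1.42.0 among them), each library left out, the GC trend removed, the replicate number as a block, and stranded counts. All libraries had a sample label and were used.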

Additional observations from a re-analysis of the deposited data

How the results depend on the processing

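EYA4 stayed above 0 in all 21 alternatives and was called in 11 of them. With the GC trend removed by a curve or by the medians of 10 GC classes, its log2 fold change was 0.2151 and 0.2084 (edgeR adjusted p = 0.0702 and 0.0759). With 1 library left out, with the trend kept or removed, it ran between 0.1736 and 0.4195. SIX2 was called in 5 alternatives, all with the trend removed, at 0.2847 by the curve and 0.3333 by classes (edgeR adjusted p = 0.0185 and 0.00788). With 1 library left out, SIX2 ran between 0.05406 and 0.3153, SIX4 between -0.2516 and -0.07972, SIX5 between -0.3366 and 0.07457, EYA1 between -0.009282 and 0.1313, EYA2 between -0.0395 and 0.2848 and EYA3 between -0.05628 and 0.159. The sign of SIX5 turned with the trend removed by the curve, to 0.04942, and was -0.0087 by classes. Of the paralogue ratios, EYA2/EYA1 turned to 0.1278, EYA3/EYA1 to 0.009129, EYA3/EYA2 to -0.1187 and SIX5/SIX4 to 0.2684 with the trend removed. With 1 library left out EYA2/EYA1 ran between -0.07318 and 0.02607, EYA3/EYA1 between -0.0658 and 0.02782, EYA3/EYA2 between -0.04849 and 0.05114 and SIX5/SIX4 between -0.2557 and 0.08343, all of them across 0. SIX4/SIX2 ran between -0.376 and -0.1344. The cause of these changes was not tested.

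Over all genes, 80 were called higher and 427 lower. With library size alone as the scaling 138 were higher and 255 lower, with no filter 153 were higher, and with the trend removed 256 were lower by the curve and 258 by classes. With 1 library left out, 6 to 744 were higher and 9 to 1737 lower. With 1 library left out, 0 to 2 members were called higher and 0 to 1 lower. Whether EYA4, SIX2 and SIX5 were called thus differed with the libraries that entered. EYA4 lost its call without H3F3A siRNA replicate 1 at 0.3373 (SE 0.0928), against 0.3085 (SE 0.0813) with all libraries. The part of the smaller number of libraries in these lost calls was not tested.

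Replicate numbers 1 and 3 are shared by the groups. Nothing in the labels ties them to a batch, so the samples were taken as sharing only a number. Same-numbered deviations correlated at 0.105 and 0.0445. With only scrambled replicates 1 and 3 in that group, the deviations of replicate 3 mirror those of replicate 1. These correlations thus cannot decide whether a batch was shared. With the replicate number as a block and the GC trend removed, 255 genes were called higher and 666 lower, among them 2 members higher (SIX2 at 0.3014 and EYA4 at 0.2154) and 1 lower (SIX4 at -0.2527), and SIX5 was at 0.01828. That fit has 1 residual degree of freedom per gene before moderation. With the block and the trend kept, EYA4 alone of the members was called. Depth leaves DACH1 and DACH2 without a comparison.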
